A study of Mus musculus with 5 samples.

Results

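The genes described here are 7 members of cholesterol synthesis and its control by the transcription factor SREBP2: Srebf2, Insig1, Hmgcs1, Idi1, Fdps, Sqle and Cyp51. They were chosen by symbol, and all 7 were found among the 13966 genes of the table. The study sequenced RNA of hepatocytes from livers of ICR mice, an outbred stock, that had received a fluorescent probe of fatty acid oxidation, and sorted the cells by that signal into 5 libraries. The groups, of 1 library each, were bezafibrate negative, bezafibrate positive and bezafibrate high, for 3 gates of mice that received bezafibrate, and control positive and control negative, for 2 gates of mice without it. All groups share the strain, the probe and the sort. Bezafibrate is a lipid-lowering fibrate that activates the nuclear receptors called PPARs. The sources used here do not give the dose, the number and age of the mice, the gate limits or whether gates share a liver, so treatment and mouse cannot be told apart. Values describe these libraries, and 1 library a group allows no test between mice.

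Hepatocytes make cholesterol from acetyl-CoA. The mevalonate segment builds isoprenoid units, the squalene segment joins them into squalene and closes the first ring system, and the sterol segment trims lanosterol down to cholesterol. SREBP2, the product of Srebf2, is held in the endoplasmic reticulum by the protein SCAP and the INSIG proteins when sterols are plentiful. When sterols fall it moves to the Golgi, is cut by proteases, and its freed part enters the nucleus and switches on genes of the pathway, among them Hmgcs1, Sqle and its own gene. The liver also takes up cholesterol from the blood and turns it into bile acids, and the farnesyl diphosphate made by Fdps feeds other products besides sterols.

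The deposited values are normalised read counts, and dividing by the value of 1 read gave back whole reads, between 5056884 in control positive and 7146578 in bezafibrate negative. Rn45s, which encodes the precursor of ribosomal RNA, took 10.5% of reads in bezafibrate negative, 18.5% in the positive gate and 13.5% in the high gate of bezafibrate mice, against 34.8% in control positive and 36.3% in control negative. Ehhadh and Cyp4a10, textbook PPAR-alpha targets, were 24.9-fold and 13.5-fold higher in bezafibrate negative than in control negative, and 14.5-fold and 7.98-fold higher in bezafibrate positive than in control positive. Of 7 hepatocyte markers, 6 were found, with sums of 61549.9 to 87117.3 in the bezafibrate libraries and 36255.5 to 37465.8 in the control libraries. Alb made up most of these sums. With bezafibrate, 5 of the 6 were higher and 1, Hnf4a, lower in the negative gate. There 4614 of the 8973 genes analysed were higher and 4358 lower. In the positive gate 4 of the 6 were higher and 2 lower, where 4521 of all genes were higher and 4452 lower. Of 10 Kupffer cell markers, 6 were found and summed to between 2.67 and 7.60 over the 5 libraries. Of 8 endothelial markers, 7 were found and summed to between 16.0 and 29.6. The 6 lymphocyte markers were not among the genes of the table. Of 8 stellate cell markers, 7 were found. They summed to 30.6 to 39.4 in the bezafibrate libraries and 102.5 to 110.8 in the control libraries, of which Reln made up most. Markers of the pericentral zone summed to 1720.8 to 2097.9 in the bezafibrate libraries and 1257.1 to 1558.2 in the control libraries, mostly from Cyp2e1. Taken gene by gene, 4 of the 6 pericentral markers exceeded control negative in bezafibrate negative, at a median log2 difference of 0.22. In bezafibrate positive only 2 exceeded control positive and 4 fell short of it, at a median of -0.21. Periportal markers summed to 4484.4 to 4639.9 in the bezafibrate libraries and 2385.8 to 2799.4 in the control libraries. Cholangiocyte markers summed to between 2.80 and 13.1 and neutrophil markers to between 0.666 and 1.58 over the 5 libraries. The part of these differences in the results below was not tested. In sorted bulk cells, fewer cells of a type and less RNA per cell cannot be told apart.

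Sequences upstream of 4 members are shown because their ratios of bezafibrate to control differed in the results below: Idi1 was below 1 beyond counting error in both gates, Cyp51 in the positive gate, Srebf2 in the negative gate and Hmgcs1 in neither. Each is 300 bases in transcript direction, from 250 before to 50 after a gene start, taken from RefSeq for GRCm38.p6. The Srebf2 stretch is chr15:82147019-82147318 on the plus strand, and the Hmgcs1 stretch is chr13:119690101-119690400 on the plus strand. The Idi1 stretch is chr13:8885356-8885655 on the plus strand, and the Cyp51 stretch is chr5:4104648-4104947 on the minus strand. Capitals mark letters that match TCACNCCAC, the core of a sterol response element bound by SREBPs, its looser form TCACNNCA, or CCAAT, the box bound by the factor NF-Y, on either strand.
Srebf2: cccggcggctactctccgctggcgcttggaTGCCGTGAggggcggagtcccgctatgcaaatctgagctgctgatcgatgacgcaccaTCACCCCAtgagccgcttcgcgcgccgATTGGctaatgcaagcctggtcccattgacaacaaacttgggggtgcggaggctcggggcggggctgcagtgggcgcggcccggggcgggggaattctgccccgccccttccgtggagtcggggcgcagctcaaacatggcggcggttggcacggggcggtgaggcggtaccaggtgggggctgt
Hmgcs1: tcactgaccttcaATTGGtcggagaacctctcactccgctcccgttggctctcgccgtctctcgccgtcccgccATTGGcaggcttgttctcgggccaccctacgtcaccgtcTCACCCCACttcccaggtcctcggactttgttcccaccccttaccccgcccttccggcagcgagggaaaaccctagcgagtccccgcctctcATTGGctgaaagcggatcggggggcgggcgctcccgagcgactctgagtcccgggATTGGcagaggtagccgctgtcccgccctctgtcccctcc
Idi1: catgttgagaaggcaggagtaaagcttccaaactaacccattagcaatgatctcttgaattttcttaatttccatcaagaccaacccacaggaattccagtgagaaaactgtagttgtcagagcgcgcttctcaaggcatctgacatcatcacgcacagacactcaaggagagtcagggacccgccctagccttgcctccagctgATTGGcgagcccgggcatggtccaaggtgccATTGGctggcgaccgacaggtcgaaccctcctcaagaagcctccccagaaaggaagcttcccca
Cyp51: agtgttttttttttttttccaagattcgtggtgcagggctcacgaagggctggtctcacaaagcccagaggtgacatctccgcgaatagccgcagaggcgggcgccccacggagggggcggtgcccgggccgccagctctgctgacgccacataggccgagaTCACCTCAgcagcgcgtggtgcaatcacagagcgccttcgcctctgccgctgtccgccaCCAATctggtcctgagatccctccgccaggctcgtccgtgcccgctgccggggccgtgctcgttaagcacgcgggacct
A match to TCACNCCAC was found in Hmgcs1, starting 137 bases before the gene start, and in 1.24% of the 32851 promoters of the same length. The looser TCACNNCA, which overlaps it in Hmgcs1, matched 2 times in Srebf2 and 1 time each in Hmgcs1 and Cyp51, against 13.8% of all promoters with a match. CCAAT matched 4 times in Hmgcs1, 2 times in Idi1 and 1 time each in Srebf2 and Cyp51, and in 37.4% of all promoters. The motifs were chosen with results known, and a match of letters is a description.

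Levels per kilobase of the longest annotated transcript, averaged over the 5 libraries, placed Insig1 first at 101 normalised read counts per kilobase. Hmgcs1 followed at 26.7, Idi1 at 17.8, Fdps at 12.8, Srebf2 at 11.3, Cyp51 at 9.67 and Sqle at 4.43 normalised read counts per kilobase. Insig1, which encodes the retention protein, was therefore the most abundant transcript of the set by this measure, and Sqle, the squalene epoxidase gene, the least abundant. All other levels below are normalised read counts per gene.

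Srebf2 (chr15:82147181-82205379, plus strand, GENCODE on GRCm38) encodes SREBP2 itself. Its level was 48.1 in bezafibrate negative, 56.1 in the positive gate and 56.0 in the high gate of bezafibrate mice, against 61.9 in control positive and 65.5 in control negative. The 3 bezafibrate libraries lay below both control libraries, with bezafibrate negative lowest. Set against control negative, bezafibrate negative was at 0.735-fold (95% counting interval 0.630 to 0.857), and bezafibrate positive against control positive was at 0.907-fold (0.774 to 1.06). In the positive gate the interval included 1, and the difference turned positive, 0.06 on the log2 scale, when columns were scaled to equal totals.

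Insig1 (chr5:28071363-28078662, plus strand) encodes the protein that keeps the SREBP and SCAP pair in the endoplasmic reticulum. It stood at 273.0 in bezafibrate negative, 276.1 in the positive gate and 284.5 in the high gate of bezafibrate mice, against 262.1 in control positive and 265.9 in control negative. The bezafibrate libraries lay slightly above the control libraries. Its ratio was 1.03 (0.957 to 1.102) in the negative gate and 1.05 (0.979 to 1.13) in the positive gate, both with 1 inside the interval. The sign of both depends on scaling, with log2 differences between -0.22 and 0.27 in the negative gate over the settings tried.

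Hmgcs1 (chr13:119690379-119708260, plus strand) encodes the cytosolic HMG-CoA synthase at the entry to the mevalonate segment. It had 104.5 in bezafibrate negative, 82.3 in the positive gate and 87.7 in the high gate of bezafibrate mice, against 93.3 in control positive and 94.4 in control negative. The bezafibrate libraries lay on both sides of the control pair. The ratios to the control library of the same gate were 1.11 (0.985 to 1.24) in the negative gate and 0.881 (0.775 to 1.003) in the positive gate, both with 1 inside the interval. Each turned sign under 1 other scaling.

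Idi1 (chr13:8885501-8892451, plus strand) encodes the isomerase that makes dimethylallyl diphosphate. Its values were 48.1 in bezafibrate negative, 42.2 in the positive gate and 43.0 in the high gate of bezafibrate mice, against 70.9 in control positive and 65.5 in control negative. Every bezafibrate library was below both control libraries. The ratio was 0.735 (0.630 to 0.857) in the negative gate and 0.596 (0.505 to 0.702) in the positive gate, and it stayed below 1 under every scaling tried. Idi1 and Srebf2 had the same number of reads in bezafibrate negative, 361, and in control negative, 319, and so share the negative-gate ratio. Of the 50-base stretches of its longest transcript, 21.3% also occur in other annotated transcripts on the same strand, such as Gm13502, so the assignment of its reads is uncertain.

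Fdps (chr3:89093588-89101959, minus strand) encodes farnesyl diphosphate synthase, at the branch point to sterols, ubiquinone and prenylated proteins. It was at 39.2 in bezafibrate negative, 39.9 in the positive gate and 45.7 in the high gate of bezafibrate mice, against 29.5 in control positive and 34.1 in control negative. Fdps thus ran opposite to Idi1, with the bezafibrate libraries above both control libraries. The ratio was 1.15 (0.947 to 1.40) in the negative gate, where the sign depends on scaling, and 1.35 (1.09 to 1.68) in the positive gate. Shared sequence reached 11.7% of its 50-base stretches, with Gm43738 among others, so its reads are uncertain too.

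Sqle (chr15:59315077-59331192, plus strand) encodes squalene epoxidase, an oxygen-using and often rate-limiting step. Its level was 11.1 in bezafibrate negative, 9.61 in the positive gate and 10.4 in the high gate of bezafibrate mice, against 34.1 in control positive and 33.9 in control negative. The 3 bezafibrate libraries lay close together and far below the control pair. Behind these values stood 83 reads in bezafibrate negative, 61 in the positive gate and 78 in the high gate of bezafibrate mice, against 158 reads in control positive and 165 in control negative. The ratio was 0.327 (0.248 to 0.428) in the negative gate and 0.282 (0.207 to 0.382) in the positive gate. Ranked from the lowest difference, Sqle was in place 114 of 8973 genes in the negative gate and in place 45 in the positive gate. Scaling changed the size and not the direction of these differences.

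Cyp51 (chr5:4081145-4104746, minus strand) encodes the lanosterol demethylase that opens the sterol segment. It had 35.7 in bezafibrate negative, 29.6 in the positive gate and 34.0 in the high gate of bezafibrate mice, against 52.0 in control positive and 38.8 in control negative. Control positive stood above the other 4 libraries. The ratio was 0.921 (0.761 to 1.12) in the negative gate, with a sign that depends on scaling, and 0.570 (0.469 to 0.693) in the positive gate. Part of its transcript overlaps Akap9 on the other strand, and the sources used here do not say whether counting used the strand.

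**Figure D1:**
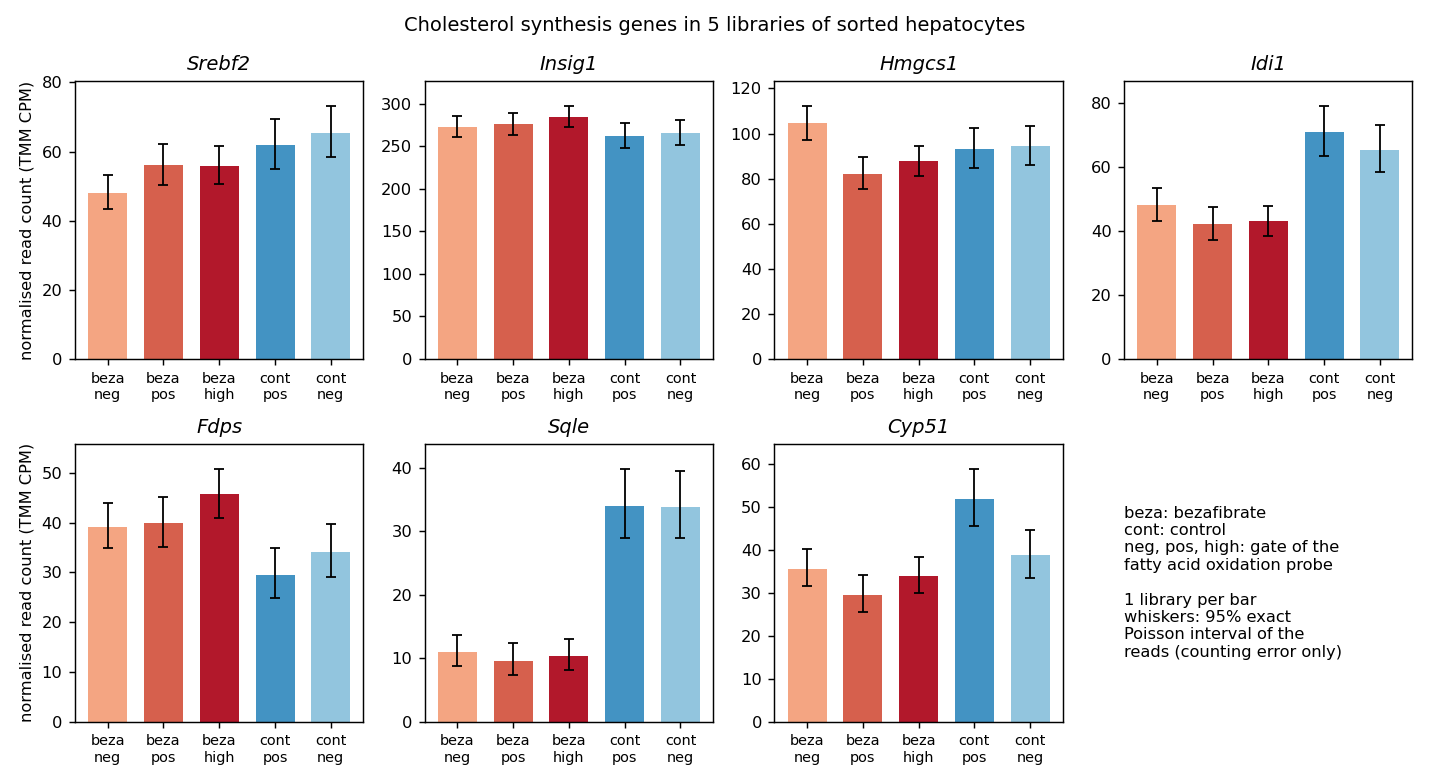
Normalised read counts of the 7 genes in each of the 5 libraries, with whiskers for the 95% exact Poisson interval of the reads (counting error only). Sqle lies between 9.61 and 11.1 in the bezafibrate libraries and at 34.1 and 33.9 in control positive and control negative, while Insig1 stays between 262.1 and 284.5 in all 5.

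Between bezafibrate and control the 7 genes differed in both directions. In the negative gate, 0 of the 7 were at least 2-fold higher in bezafibrate, against 10.2% of all genes analysed, and 1, Sqle, was at least 2-fold lower, against 5.86%. Those shares stand for 919 genes higher and 526 lower, a split that was 1431 and 271 with columns scaled to equal totals and 549 and 1051 without Rn45s. Counting intervals lay above 1 for 0 of the 7, against 32.3% of genes, and below 1 for 3, Srebf2, Idi1 and Sqle, against 29%. The median log2 difference of the 7 was -0.12, beside 0.02 over all genes, and turned to 0.11 with equal totals, where the median of all genes was 0.25. In the positive gate, 0 were at least 2-fold higher, against 4.94% of genes, and 1, again Sqle, was at least 2-fold lower, against 2.91%. The split of 443 genes higher and 261 lower was 812 and 134 with equal totals and 336 and 366 without Rn45s. There the interval lay above 1 for Fdps, against 25.9% of genes, and below 1 for Idi1, Sqle and Cyp51, against 24.4%. The median was -0.18, beside 0.00 over all genes, and turned to 0.02 with equal totals, where the median of all genes was 0.20.

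The gates were also read together, by a fit with a gate term and a treatment term to the 4 libraries without bezafibrate high. The fit has 1 residual degree of freedom and does not test between mice. Each gene's own error comes from the part of its treatment difference that depends on the gate, and limma and edgeR draw it towards a spread shared across genes, so the errors printed here are mostly that shared spread. Of all genes, limma called 45.3% at an adjusted p of 0.05, and of the 7 it called 3, a share close to that of all genes. The called genes were Sqle at -1.63 ± 0.188 (SE, log2 bezafibrate minus control, limma adjusted p = 3.59e-15), Idi1 at -0.59 ± 0.156 (limma adjusted p = 8.16e-04) and Cyp51 at -0.45 ± 0.164 (limma adjusted p = 0.0161). Sqle, Idi1 and Cyp51 were thus lower after bezafibrate by this fit, and edgeR's quasi-likelihood test on the recovered reads, which called 45.8% of genes (24.1% higher and 21.7% lower), called the same 3. For Cyp51 the treatment difference was itself -0.67 apart between the positive and the negative gate on the log2 scale, so its call leans on the shared spread. Fdps had 0.31 (limma adjusted p = 0.116), Srebf2 -0.29 (limma adjusted p = 0.119), Insig1 0.06 and Hmgcs1 -0.02. With columns scaled to equal totals, Cyp51 lost its call and Fdps gained one.

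The other enzymes of the pathway, 17 genes of which 16 were analysed, were counted in the same way. Idi2, the isomerase gene copy left out, had a mean of 1.80 and did not reach the minimum of 5.02. In the negative gate 11 of the 16 had a counting interval above 1, against 32.3% of all genes, and 3 below 1, against 29%, with a median log2 difference of 0.64 beside 0.02 over all genes. In the positive gate 5 lay above, against 25.9%, and 2 below, against 24.4%, with a median of 0.11 beside 0.00. The limma fit called 7 of the 16 higher after bezafibrate, against 24.5% of all genes, and 2 lower, against 20.8%. With columns scaled to equal totals it called 9 of the 16 higher and 1 lower, where it called 3209 of all genes higher and 1045 lower in place of 2196 and 1868. Acat2, Dhcr7, Ebp, Msmo1, Nsdhl and Sc5d were among those called higher, and the 2 called lower were Pmvk and Mvd. Of the 7 called higher, 6 belong to the sterol segment, and both called lower belong to the mevalonate segment.

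In the mevalonate segment, Mvd, which makes isopentenyl diphosphate, was at 4.80, 3.78 and 5.33 in bezafibrate negative, positive and high, and at 8.84 and 10.9 in control positive and control negative. Mvd ratios were 0.441 (0.280 to 0.686) in the negative gate and 0.428 (0.247 to 0.725) in the positive gate, lower than those of the other enzymes named except Sqle. Pmvk, phosphomevalonate kinase, was at 0.539 (0.413 to 0.701) and 0.804 (0.623 to 1.04) in the negative and positive gates. Acat2, the cytosolic thiolase, was at 1.74 (1.39 to 2.21) and 1.25 (0.990 to 1.60), and Mvk, mevalonate kinase, at 1.77 (1.16 to 2.79) and 0.684 (0.443 to 1.06). Median log2 differences of the 8 analysed mevalonate genes, 3 of the 7 among them, were -0.05 in the negative gate and -0.24 in the positive gate.

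In the squalene segment, Sqle stood apart from its neighbours. Fdft1, squalene synthase, was at 1.47 (1.21 to 1.79) in the negative gate and 0.845 (0.691 to 1.03) in the positive gate. Lss, which closes the rings to lanosterol, was at 1.103 (0.906 to 1.35) in the negative gate, with a sign that depends on scaling, and at 1.23 (0.989 to 1.54) in the positive gate. The ratios of Fdft1 and Lss were above those of Sqle, 0.327 and 0.282, in both gates, without overlap of their intervals.

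In the sterol segment, 8 of the 10 genes had a counting interval above 1 in the negative gate, against 32.3% of all genes, and 0 below, against 29%. The median log2 difference was 0.81. In the positive gate 5 lay above, against 25.9%, and 2, Cyp51 and Hsd17b7, below, against 24.4%, with a median of 0.21. Sc5d, the sterol desaturase, was at 217.0 in bezafibrate negative, 146.9 in the positive gate and 157.6 in the high gate of bezafibrate mice, against 77.4 in control positive and 73.3 in control negative. Ebp, the sterol isomerase, was at 115.0, 84.5 and 85.7 in bezafibrate negative, positive and high, against 44.4 and 40.2 in control positive and control negative. Sc5d ratios were 2.96 (2.64 to 3.33) in the negative gate and 1.90 (1.68 to 2.15) in the positive gate, and Ebp ratios 2.86 (2.45 to 3.36) and 1.90 (1.62 to 2.25). Both genes were higher in all 3 bezafibrate libraries, and highest in the negative gate. Nsdhl, a sterol dehydrogenase, was at 3.48 (2.36 to 5.28) in the negative gate and 1.14 (0.777 to 1.68) in the positive gate, and Msmo1, the methylsterol monooxygenase, at 1.92 (1.49 to 2.49) and 1.55 (1.18 to 2.05). The reductase gene Dhcr7 was at 1.84 (1.59 to 2.15) in the negative gate and at 1.19 (1.03 to 1.39) in the positive gate. Tm7sf2, a sterol reductase, was at 1.46 (1.17 to 1.83) and 1.01 (0.791 to 1.30), and Lbr, which holds the same activity, at 0.985 (0.699 to 1.40) and 0.765 (0.536 to 1.09), with signs that depend on scaling for Tm7sf2 in the positive gate and Lbr in the negative gate. Cyp51, at the head of this segment, was thus the 1 gene of the 7 in it and did not share its higher values.

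Transcript length moved with these differences. Among 5 groups of genes of about equal number by transcript length, the shortest had a median log2 difference of 0.39 and the longest of -0.14 in the negative gate, and of 0.25 and -0.10 in the positive gate. The 7 genes lay in the groups numbered 2 to 4 from the shortest, with medians between -0.08 and 0.10 in the negative gate. Of the other enzymes named above as called by the fit, Ebp, called higher, and Mvd and Pmvk, called lower, lay in the shortest group. Acat2, Dhcr7, Msmo1 and Nsdhl, called higher, lay in group 2, and Sc5d, also called higher, in group 4. The part of length in the treatment differences was not tested.

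**Figure D2:**
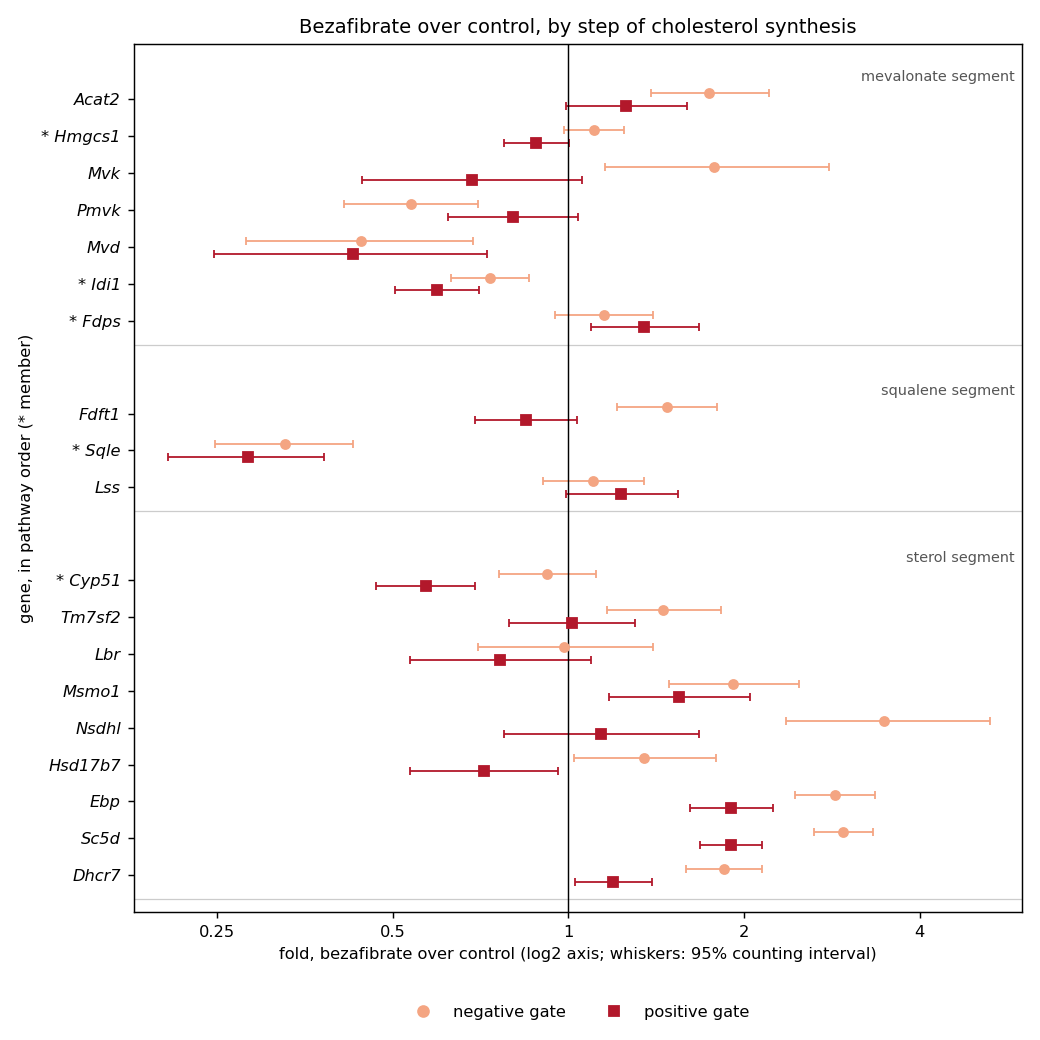
Ratio of normalised read counts, bezafibrate over control, on a log2 axis with whiskers for the 95% counting interval, for pathway genes in the order of their steps, in the negative gate (circles) and the positive gate (squares); asterisks mark genes of the 7. Sqle lies lowest at 0.327 and 0.282, while Nsdhl, Ebp and Sc5d of the sterol segment lie at 3.48, 2.86 and 2.96 in the negative gate.

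Targets of SREBP2 outside the synthesis pathway were divided as well. Of 9 listed, 8 were analysed, with median log2 differences of 0.35 in the negative gate and 0.30 in the positive gate. Counting intervals lay above 1 for 5, against 32.3% of all genes, and below 1 for 3, against 29%, in the negative gate. In the positive gate they lay above 1 for 4, against 25.9%, and below 1 for 3, against 24.4%. Npc1, which moves cholesterol out of lysosomes, was at 2.06 (1.83 to 2.32) and 1.78 (1.58 to 2.01), Tmem97 at 2.31 (1.74 to 3.09) and 2.10 (1.54 to 2.90), and Rdh11 at 2.25 (1.78 to 2.86) and 1.46 (1.16 to 1.85). Npc1, Tmem97 and Rdh11 were thus on the higher side with Ebp and Sc5d, and opposite to Sqle and Idi1.

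Genes that process and hold SREBPs, 12 in number, had medians of 0.39 and 0.25. Srebf1, which encodes the lipogenic relative SREBP1, was at 667.0, 653.3 and 667.5 in bezafibrate negative, positive and high, against 404.2 and 385.4 in control positive and control negative. All 3 bezafibrate libraries lay above both control libraries, where Srebf2 lay below. The Srebf1 ratio was 1.73 (1.64 to 1.83) in the negative gate and 1.62 (1.53 to 1.71) in the positive gate. Scap, the SREBP escort, was at 1.01 (0.929 to 1.11) and 0.939 (0.856 to 1.03). Erlin1, an endoplasmic reticulum protein tied to the breakdown of proteins of that membrane, was at 2.15 (1.74 to 2.68) and 1.76 (1.39 to 2.24), and Mbtps2, a protease that cuts SREBPs, at 1.43 (0.870 to 2.43) and 2.39 (1.32 to 4.59). Mbtps2 was low, at a mean of 5.74, and its ratios rest on 24 reads in control negative and 15 in control positive.

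Lists next to the pathway gave these values in the negative and positive gates. Fatty acid genes driven by SREBP1, 12 in number, had medians of 0.68 and 0.54, with Scd1, the stearoyl-CoA desaturase, at 3.93 (3.83 to 4.02) and 2.38 (2.32 to 2.43) and Pnpla3 at 2.58 (1.93 to 3.48) and 2.88 (2.17 to 3.87). Fasn, the fatty acid synthase, was at 1.01 (0.969 to 1.04) and 0.920 (0.885 to 0.956). Of 11 genes of cholesterol export and esterification 8 were analysed, with medians of 0.15 and 0.10. In the negative gate 4 intervals lay above 1, against 32.3% of all genes, and 4 below, against 29%. In the positive gate 4 lay above, against 25.9%, and 4 below, against 24.4%. Among these 8 genes the exporter Abca1 was at 0.925 (0.883 to 0.969) and 0.858 (0.817 to 0.902). Abcg8, which passes sterol into bile, was at 1.33 (1.22 to 1.45) and 1.35 (1.24 to 1.46). Lpcat3 was at 2.66 (2.27 to 3.13) and 1.64 (1.40 to 1.93) and Lcat at 2.36 (2.16 to 2.58) and 1.81 (1.65 to 1.99). The 4 genes of bile acid synthesis had medians of 0.81 and 0.48, with Cyp7a1, the rate-limiting enzyme, at 2.21 (1.83 to 2.68) and 1.54 (1.30 to 1.85), Cyp7b1 at 2.76 (2.06 to 3.75) and 1.39 (1.05 to 1.85), Cyp27a1 at 1.41 (1.33 to 1.505) and 1.43 (1.35 to 1.52) and Cyp8b1 at 0.917 (0.852 to 0.989) and 0.854 (0.789 to 0.924). Of 9 genes on the ways from farnesyl diphosphate to products other than sterols 7 were analysed, with medians of 0.28 and 0.26. In the negative gate the interval lay above 1 for 1 gene, Dhdds at 1.46 (1.11 to 1.93), against 32.3% of all genes, and below 1 for 0, against 29%. In the positive gate it lay above 1 for 0, against 25.9%, and below 1 for 0, against 24.4%. These genes were low, with Nus1 highest at a mean of 23.7, and few reads widen the intervals. Nus1 was at 1.24 (0.975 to 1.59) and 0.927 (0.718 to 1.20), and Pggt1b at 1.55 (0.965 to 2.55) and 1.38 (0.860 to 2.27).

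Between the gates of the control mice, Cyp51 was the 1 gene of the 7 that differed beyond counting error. With control positive set against control negative, 0 of the 7 were at least 2-fold higher, against 0.145% of genes, and 0 at least 2-fold lower, against 0.189% (13 genes higher and 17 lower, which were 15 and 11 with equal totals). The interval lay above 1 for Cyp51, at 1.34 (1.102 to 1.63), against 4.93% of genes, and below 1 for 0, against 4.41%. The other 6 had ratios whose intervals held 1, from Fdps at 0.867 to Idi1 at 1.08, and Sqle was at 1.01 (0.803 to 1.26). The median of the 7 was -0.02, beside 0.01 over all genes, and 0.02 with equal totals, beside 0.05.

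Between the gates of the bezafibrate mice, Srebf2 and Hmgcs1 had counting intervals on opposite sides of 1, and the share of the 7 on each side was close to that of all genes. With bezafibrate positive set against bezafibrate negative, 0 of the 7 were at least 2-fold higher or lower, against 0.134% and 0.123% of genes (12 higher and 11 lower, which were 23 and 9 without Rn45s). Srebf2 was higher at 1.17 (1.004 to 1.35), the 1 interval of the 7 above 1, against 13.7% of genes, and Hmgcs1 lower at 0.787 (0.703 to 0.881), the 1 below 1, against 18.6%. The median of the 7 was -0.18, beside -0.01 over all genes. Sqle and Idi1, the genes of the clearest treatment differences, had intervals that held 1 between these gates.

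The high and positive gates of the bezafibrate mice were not parted in any of the 7 genes at this depth. With bezafibrate high set against bezafibrate positive, 0 of the 7 were at least 2-fold higher or lower, against 0.0669% and 0.078% of genes (6 higher and 7 lower, which were 11 and 7 with equal totals), and the counting interval excluded 1 for 0, against 8.21% above and 7.75% below. The median was 0.09, beside -0.00 over all genes. Against bezafibrate negative, bezafibrate high had Srebf2 at 1.16 (1.01 to 1.34), the 1 interval above 1, against 12.2% of genes, and Hmgcs1 at 0.839 (0.755 to 0.932), the 1 below 1, against 16.9%. None of the 7 reached 2-fold there, against 0.111% of genes higher and 0.156% lower (10 and 14 genes, which were 16 and 9 without Rn45s). The median was -0.07 beside -0.02, and 0.04 without Rn45s, beside 0.09. The comparisons of bezafibrate positive and of bezafibrate high with bezafibrate negative share that library, and the 1 of 7 genes on each side of 1 is near the share of all genes in both.

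The 10 sterol segment genes were set between gates in the same way. With bezafibrate positive set against bezafibrate negative, all 10 of its genes lay below 0 (Lbr above it when scaled without Rn45s), 8 with an interval below 1, against 18.6% of all genes, at a median of -0.39 beside -0.01 over all genes. Of the 8973 genes, 4630 lay below 0 there. In the control gates 9 of the 10 lay above 0 (the other, Msmo1, too under 2 of the scalings), 2 with an interval above 1, against 4.93% of all genes, at a median of 0.18 beside 0.01. Of all genes, 4678 lay above 0 there. Both medians come from the same libraries as the treatment comparisons above. For each gene, the gap between its 2 gate differences equals the gap between its 2 treatment differences, as in Nsdhl at -1.48 on the log2 scale. These gate values thus rearrange the treatment result and are no second observation of it. The difference between the medians was not tested. Nsdhl was at 0.520 (0.389 to 0.689) and Sc5d at 0.677 (0.624 to 0.734) between the bezafibrate gates, and at 1.59 (0.990 to 2.59) and 1.06 (0.909 to 1.23) between the control gates. Cyp51, 1 of the 10, was at 0.829 (0.685 to 1.003) between the bezafibrate gates and at 1.34 (1.102 to 1.63) between the control gates. Beside this, the hepatocyte markers, mostly Alb, summed to 61549.9 in bezafibrate positive and 87117.3 in bezafibrate negative. Rn45s held 18.5% and 10.5% of reads. Other lists also fell between these bezafibrate gates. Intervals lay below 1 for 5 of 5 PPAR-alpha targets, 8 of 12 SREBP1 fatty acid genes and 5 of 6 hepatocyte markers. They lay above 1 for 0, 3 and 1 of these, against 13.7% of all genes. Of the 8 SREBP2 targets outside the pathway, 1 lay below 1 and 0 above. The part of the markers and of Rn45s in the sterol segment values was not tested.

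**Figure D3:**
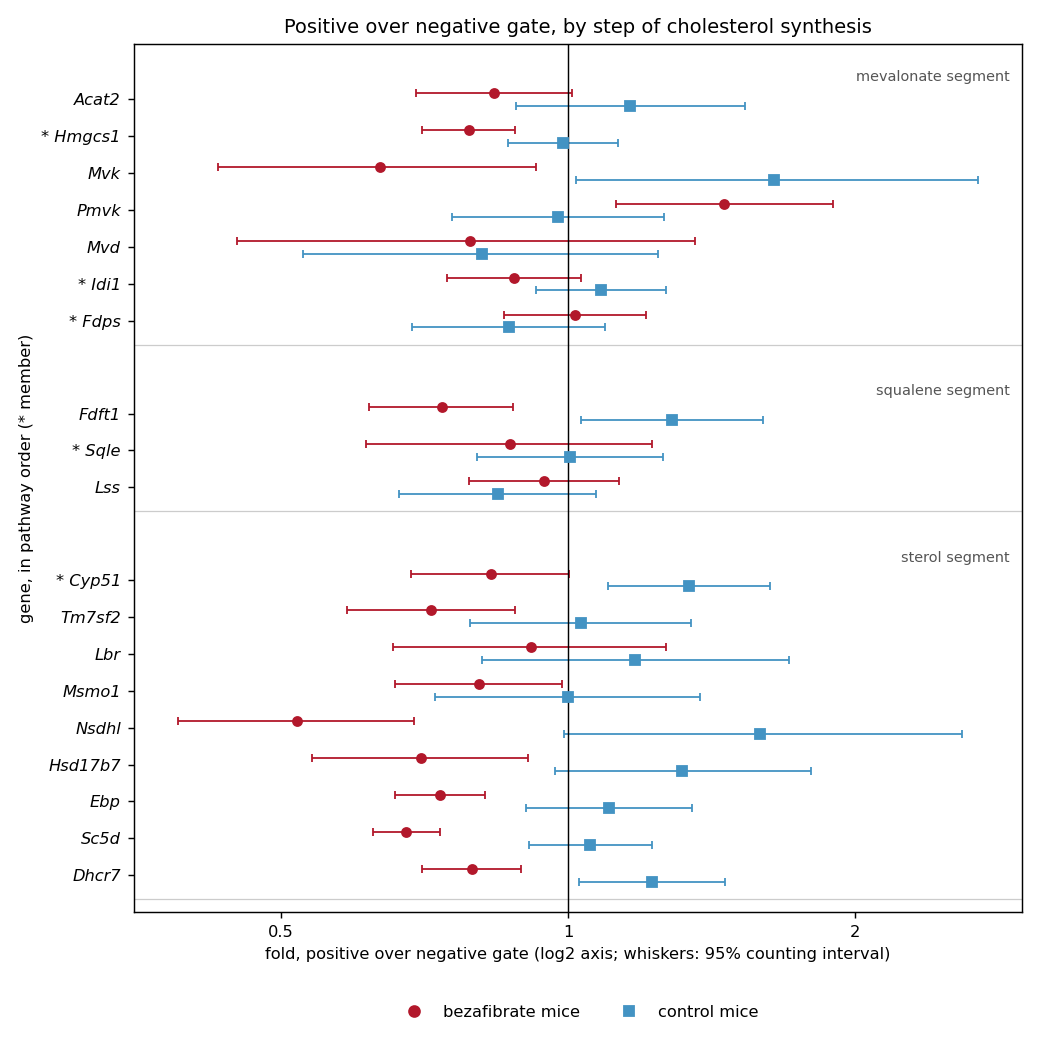
Ratio of normalised read counts, positive over negative gate, on a log2 axis with whiskers for the 95% counting interval, for pathway genes in the order of their steps, in bezafibrate mice (circles) and control mice (squares); asterisks mark genes of the 7. All sterol segment genes shown lie below 1 between the bezafibrate gates, and all but Msmo1 lie above 1 between the control gates; Lbr in bezafibrate mice and Msmo1 in control mice change sign under other scalings.

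Ordering the 5 libraries by level within each gene, few neighbours were parted beyond counting error. The step with control negative above bezafibrate negative was 3.06-fold (2.34 to 4.04) in Sqle and 1.36-fold (1.17 to 1.59) in Idi1. For Srebf2 it was bezafibrate high above bezafibrate negative, at 1.16-fold, and for Cyp51 control positive above control negative, at 1.34-fold. No neighbouring pair was parted in Hmgcs1, Fdps or Insig1. Across the 5 libraries the range on the log2 scale was 1.72 in Sqle, 0.79 in Cyp51, 0.73 in Idi1, 0.61 in Fdps, 0.44 in Srebf2, 0.34 in Hmgcs1 and 0.12 in Insig1.

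Likeness of profiles was measured as the root mean square distance between log2 profiles over the 5 libraries, each centred on its own mean. The closest pairs of the 7 were Hmgcs1 with Insig1 at 0.136 and Idi1 with Cyp51 at 0.138, and the farthest was Fdps with Sqle at 0.987. Fdps and Sqle encode enzymes of nearby steps and had the most unlike profiles of the set. Sqle weighed most in the mean profile of the 7, with a centred value of 0.97 in control negative, where that mean was 0.20. Fdps and Insig1 lay on the other side there, at -0.13 and -0.03, so the mean is not a profile shared by the 7. Among 4851 other genes, those closest to this mean were Kdm5c at 0.0203, Cnpy3 at 0.0209, Ascc2 at 0.0230, Trappc10 at 0.0237 and Apbb2 at 0.0259. Because they were picked for closeness to this mean, these 5 had lower values in the 3 bezafibrate libraries than in both control libraries. Kdm5c had 112.2, 104.5 and 108.5 in bezafibrate negative, positive and high, against 142.7 and 141.3 in control positive and control negative. With 5 points, of which 3 share the treatment, such likeness describes these libraries.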

How the data were processed

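The submitters' processing notes name genome build mm10 and the tools edgeR, RSEM, Bowtie2 and Trimmomatic 0.36, without roles. The gene annotation used for the deposited table is not given in these sources. Per the labels' protocols, RNA was depleted of ribosomal RNA and libraries were strand-specific and paired-end. The authors deposited 1 table of normalised read counts (signal), and all values were whole reads times 1 factor per library (100% whole, tolerance 0.001 reads). Trimmed mean (TMM) scaling of the recovered reads with edgeR 4.0.16 gave the deposited values back, at a ratio of 1.00000 in each library.

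Genes with a mean of at least 5.02, 5 times the pseudocount of 1.004, were analysed, 8973 in all, among them all 7 described. Differences are of log2(value + pseudocount), which understates those of low genes, while folds are plain ratios with exact 95% Clopper-Pearson intervals from the reads. These cover counting error only, and not the spread between mice or libraries. Reads counted without molecular identifiers may repeat a molecule, so the intervals may be too narrow even for counting error. The treatment fit used limma 3.58.1 with Benjamini-Hochberg adjustment in R 4.3.3. Steps were tried on simulated reads that varied by counting error only. Such reads cannot show how the fit behaves with spread between mice or libraries. Other steps ran in scipy 1.17.1, pandas 2.3.3 and numpy 2.4.6 under Python 3.11.15. Positions, lengths and shared sequence came from GENCODE for GRCm38, which is mm10, where 95.8% of symbols matched 1 gene. RefSeq promoters were found for 5 of the 7 genes.

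Genes named were the 7, the other pathway enzymes, the 2 of highest mean and the 2 of largest treatment difference in each further list, and the 5 of closest profile. A few genes named by it are left out here. The members and lists were chosen with earlier results of these data known. Alternatives changed the pseudocount, the scaling, the filter, the fold threshold and the tool of the treatment fit.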

Additional observations from a re-analysis of the deposited data

Results flagged for a closer look

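In 3 pathway enzymes the gate difference had counting intervals on opposite sides of 1 in bezafibrate and in control mice. None of these differences between groups was tested, since each group has 1 library. Over all genes analysed, 2.67% showed the same opposition of intervals.

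Mvk, mevalonate kinase, had a positive over negative ratio of 0.635 (0.430 to 0.926) in bezafibrate mice and 1.65 (1.02 to 2.69) in control mice, a difference of -1.23 on the log2 scale. Its level was 6.93 in bezafibrate positive and 10.9 in bezafibrate negative, and 10.1 in control positive and 6.16 in control negative. Fdft1, squalene synthase, had ratios of 0.737 (0.619 to 0.876) in bezafibrate mice and 1.28 (1.03 to 1.60) in control mice, a difference of -0.78. Dhcr7, a sterol reductase, had 0.792 (0.702 to 0.893) in bezafibrate mice and 1.23 (1.03 to 1.46) in control mice, a difference of -0.62. The 3 enzymes come from 3 different segments of the pathway.

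For Hsd17b7, a sterol ketoreductase, the treatment ratio was 0.716 (0.535 to 0.959) in the positive gate and 1.35 (1.02 to 1.79) in the negative gate, a difference of -0.87 on the log2 scale, which was not tested. Such opposition between gates was seen in 0.501% of all genes analysed.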

How the results depend on the processing

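Of 252 values of the 7 genes under other pseudocounts and scalings, 239 moved by less than their counting interval and 13 by more. The 239 include all values under TMM scaling, which gives the deposited values back and so could not move them. Sqle and Idi1 were lower with bezafibrate in both gates under every setting tried. Scaling to equal totals shifted the median of all genes by 0.22 in the negative gate and 0.20 in the positive gate of the treatment comparison, and scaling without Rn45s by -0.24 and -0.11. Without Rn45s it also moved by 0.14 for bezafibrate positive against negative and by 0.11 for high against negative. The treatment median of the 7 was 0.111 in the negative gate and 0.0243 in the positive gate with equal totals, against -0.12 and -0.18. The cause was not tested.

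Genes at 2-fold or more numbered 1445 in the negative gate and 704 in the positive gate for treatment, 30 between control gates, and 23, 13 and 24 for bezafibrate positive against negative, high against positive and high against negative. In that order they were 943, 411, 3, 14, 8 and 9 with a 5 times larger pseudocount, 874, 405, 3, 8, 4 and 7 with a minimum of 20 times the pseudocount, and 3599, 2453, 303, 422, 159 and 340 at 1.5-fold. With no filter the last 5 were 1086, 232, 92, 133 and 133.

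No paired analysis was possible because the labels give no replicate numbers and each group has 1 library. Leaving out a library leaves no comparison of its group and no residual degree of freedom in the treatment fit. TMM scaling changed no value. The depth of 61 to 165 reads limits Sqle.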
